A study of Danio rerio with 17 samples.

Results

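The comparison described here set zebrafish on a selenium-supplemented diet against zebrafish on a control diet, within the population named Transgenic Mosaic 1. All fish were adult males, 1 year old, that had eaten their diet for 10 weeks, and selenium was given as selenomethionine. The supplemented diet held 3.1 ppm selenium and the control diet 1.7 ppm. Each group had 3 fish, taken by the population and diet in their labels, so the comparison used 6 of the 17 arrays of the series. The other 11 fish were 3 Transgenic Mosaic 1 fish on a deficient diet of 0.46 ppm, and 8 fish of the Pargana population, of which 3 were supplemented, 2 were controls and 3 were deficient. Which transgene Transgenic Mosaic 1 fish may carry, and in which cells, is not given in the sources used here. Each array measured RNA from the midbrain of a single fish, labelled with Cy3 and hybridised to a NimbleGen expression array.

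Selenium acts mainly through selenoproteins, in which it is built into the protein as the amino acid selenocysteine at a UGA codon that would otherwise stop translation. They include the glutathione peroxidases and thioredoxin reductases, which handle peroxides and keep thiols reduced, the deiodinases, which activate or inactivate thyroid hormone, and selenoprotein P, which carries selenium in plasma and supplies it to the brain. Selenomethionine also enters the body's methionine pool, since it can replace methionine in proteins. The midbrain of fish holds the optic tectum, where visual input is mapped, and the tegmentum below it, with motor and neuromodulatory neurons.

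The deposited values were log2 expression values for 15648 genes, so that a difference of 1 is a 2-fold difference. Array medians of the 6 fish were between 9.62 and 9.73, and the lowest value of an array between 3.67 and 3.77. Arrays correlated at r = 0.983 to 0.991 within the groups and at 0.981 to 0.990 between them, across genes. The tissue label was read beside 34 measured markers of midbrain and general neurons. The midbrain transcription factors OTX2 (12.22 to 12.41 in the 6 fish), EN2 (11.68 to 12.22) and PAX7 (13.06 to 13.37) and the neuronal genes ELAVL3 (13.38 to 13.63) and SNAP25 (14.47 to 14.71) all lay far above the array minima. Other markers of the list were lower, among them EN1 (8.65 to 9.54), otx2a (8.25 to 8.91), LMX1B (8.81 to 9.66) and syt1b (7.06 to 7.52). None of the 34 markers passed the limma test between the diets, and 0 had an unadjusted p under 0.05, beside 0.0831% and 5.76% of all genes. At those shares few would be expected among 34 genes.

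Few genes separated the supplemented from the control midbrains. In limma, fitted to all 17 arrays with a mean for each group, 13 of 15648 genes (0.0831%) passed an adjusted p of 0.05. Of these, 5 (0.032%) were higher and 8 (0.0511%) lower in the supplemented fish, and with arrays centred on their medians the split was 8 higher of 16. The rises were in the malate dehydrogenase gene mdh1b, the cytochrome oxidase assembly gene cox16, the DNA damage gene brat1, si:ch73-191k20.4 and the unnamed ENSDARG00000063359. The falls included the transcription factor genes ALX1 and tbx16l and 5 genes known only by clone names or identifiers, and 1 gene that fell is not reported here. Folds of the 12 named genes ran from 1.92 to 28.8, and in each the 3 supplemented and 3 control fish did not overlap, as was so for 11.7% of all genes. In a fit of the Transgenic Mosaic 1 arrays alone 5 genes passed, 4 of them named here: ENSDARG00000063359, ENSDARG00000095735, ENSDARG00000078938 and si:dkey-58f10.8.

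At an unadjusted p of 0.05 the test took 901 genes (5.76%), 338 higher (2.16%) and 563 lower (3.6%), where 782.4 would be expected with no difference. The median difference over all genes was -0.04, and 41.9% of genes lay above 0. After quantile normalization that median was 3.44e-05. Counts of list members on either side of 0 are to be read beside that share. Differences beyond 1 log2 unit were seen in 212 genes, 94 higher and 118 lower, and 11 of the 212 passed the adjusted test. The middle of the distribution was narrow, with its 5th percentile at -0.46 and its 95th at 0.38, against a median standard error of 0.18 for a single gene. The number of arrays limits this precision. In RNA from a whole midbrain, fewer cells of a type and less RNA per cell cannot be told apart.

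**Figure D1:**
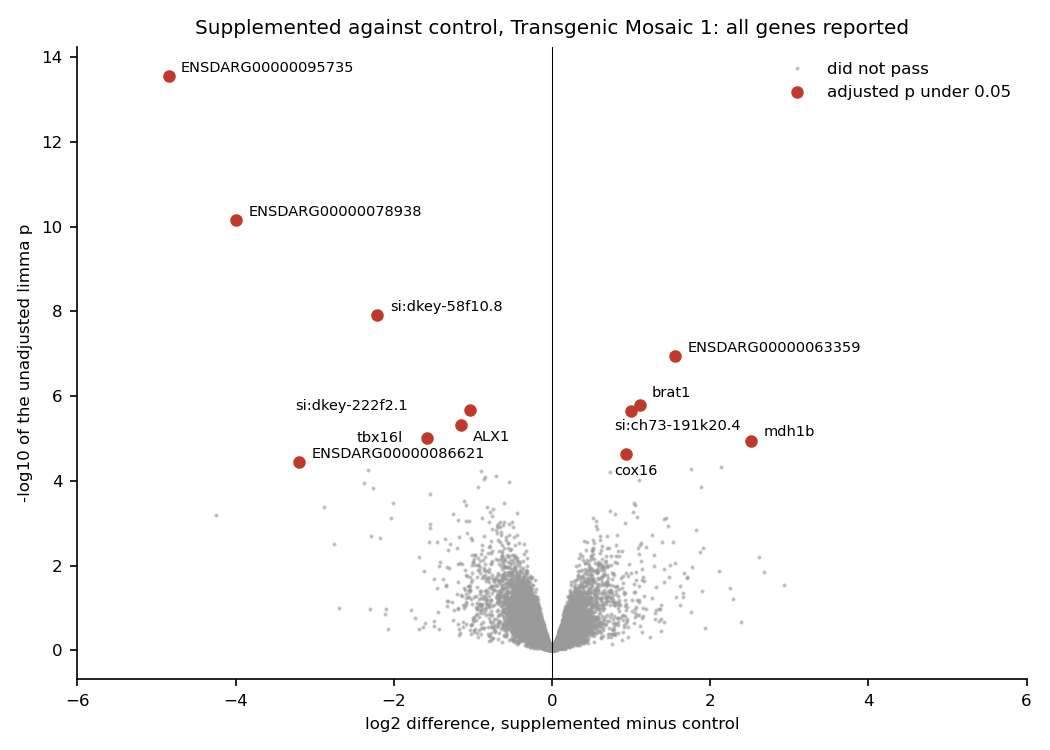
Each point is a gene, by its log2 difference (supplemented minus control, horizontal axis) and the -log10 of its unadjusted limma p (vertical axis). The 12 named genes past the threshold stand out in red, with ENSDARG00000095735 (-4.85) far to the left and mdh1b (2.52) the rightmost of the rises.

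For mdh1b and cox16 all supplemented fish lay above all controls. The gene mdh1b encodes malate dehydrogenase 1B, a relative of the cytosolic enzyme that interconverts malate and oxaloacetate. It measured 8.91, 9.19 and 9.34 in the supplemented fish, against 6.69, 6.69 and 6.50 in the controls. The lowest supplemented fish lay 2.21 log2 units above the highest control, and the mean difference was 2.52 ± 0.38 (SE; 95% interval 1.71 to 3.33), a 5.72-fold rise (limma adjusted p = 0.0158). The call was lost when any 1 of the 6 fish was left out, although the difference stayed between 2.42 and 2.64 across all settings tried.

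The gene cox16 encodes a factor of the inner mitochondrial membrane that helps to assemble cytochrome c oxidase, the last complex of the respiratory chain. Its values were 9.74, 9.47 and 10.00 in the supplemented fish and 8.76, 8.66 and 8.97 in the controls. The groups were 0.50 log2 units apart at their nearest fish. The 11 fish outside the comparison were at 9.09 to 9.57, all above the controls. The rise was 0.94 ± 0.15 (SE), or 1.92-fold (limma adjusted p = 0.0306), and 8 of the 17 fits that left out 1 array, including fits without a Pargana array, lost the call.

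Of the 5 rises, brat1 had the smallest spread within the supplemented group. It encodes a partner of BRCA1 and ATM in the response to DNA breaks. It measured 9.89, 9.81 and 9.78 in the supplemented fish, against 8.91, 8.70 and 8.55 in the controls, 1.11 ± 0.14 (SE) log2 units above them (limma adjusted p = 0.00431). The protein product of si:ch73-191k20.4 is not named in the files. Its 3 supplemented fish (9.80, 9.64 and 9.82) all stood above the 3 controls (8.79, 8.64 and 8.83). Its rise was 1.00 ± 0.13 (limma adjusted p = 0.00439). The 11 fish outside the comparison were at 8.85 to 9.66, all above the controls, and the 8 Pargana fish among them at 9.38 to 9.66. Both calls held when any 1 array was left out.

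ENSDARG00000063359, which has no symbol in the files, was at 6.18, 5.91 and 6.07 in the supplemented fish and at 4.26, 4.62 and 4.62 in the controls. The controls were near the lowest values of the arrays, and the supplemented fish 1.29 log2 units or more above them. Its rise of 1.55 ± 0.16 (SE; limma adjusted p = 3.51e-04) held in every alternative fit that tested it.

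Among the genes that fell were 2 for transcription factors known from the embryo. ALX1 encodes a homeodomain factor of the cranial neural crest and the mesenchyme of the face. It was at 7.37, 7.89 and 7.53 in the supplemented fish, against 8.60, 8.93 and 8.72 in the controls. The difference was -1.16 ± 0.16 (SE; limma adjusted p = 0.0082), with no overlap. The T-box gene tbx16l, known in zebrafish from the mesoderm of the embryo, measured 6.47, 5.83 and 6.66 in the supplemented fish and 8.14, 7.54 and 8.01 in the controls. It fell by 1.58 log2 units (SE 0.23, limma adjusted p = 0.0154). The 11 fish outside the comparison were at 6.05 to 7.05 for tbx16l, all below the controls. For ALX1 they were at 7.793 to 8.596, also all below the controls, of which the lowest was at 8.599. Leaving out 1 array ended the call of ALX1 in 3 of 17 fits and that of tbx16l in 4 of 17, in each case without a fish of the comparison itself.

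The deepest falls were in genes without a described product. ENSDARG00000095735, a gene that the files list under a clone name, was at 9.03, 8.53 and 8.67 in the supplemented fish and at 13.56, 13.71 and 13.50 in the controls. This was the smallest p of the comparison, with a difference of -4.85 ± 0.15 (SE; limma adjusted p = 4.26e-10), or 28.8-fold. All 11 fish outside the comparison lay between the groups, the 8 Pargana fish at 9.16 to 9.63, so the high values were those of the 3 Transgenic Mosaic 1 controls alone.

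ENSDARG00000078938 was also highest in the controls, with 7.04, 7.12 and 7.13 in the supplemented fish and 10.92 to 11.35 in the controls (difference -4.0 ± 0.23, limma adjusted p = 5.41e-07). The clone-named si:dkey-58f10.8 was at 5.01, 5.28 and 5.44 in the supplemented fish, against 7.24, 7.78 and 7.34 in the controls, a fall of 2.21 (SE 0.19, limma adjusted p = 6.45e-05). None of the 8 Pargana fish reached the control side for either gene. ENSDARG00000086621 had 7.77, 7.02 and 6.84 in the supplemented fish and 10.44, 10.50 and 10.27 in the controls. Its difference was large, at -3.20, but its standard error was 0.53, and the call (limma adjusted p = 0.043) was lost in 11 of the 17 fits without 1 array. The gene si:dkey-222f2.1 fell by 1.04 (SE 0.13, limma adjusted p = 0.00439), with supplemented fish between 4.99 and 5.21 and controls between 5.92 and 6.38. The 11 other fish were at 5.38 to 6.03 for this gene, all above the supplemented fish, and at 7.20 to 9.64 for ENSDARG00000086621, all below the controls.

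**Figure D2:**
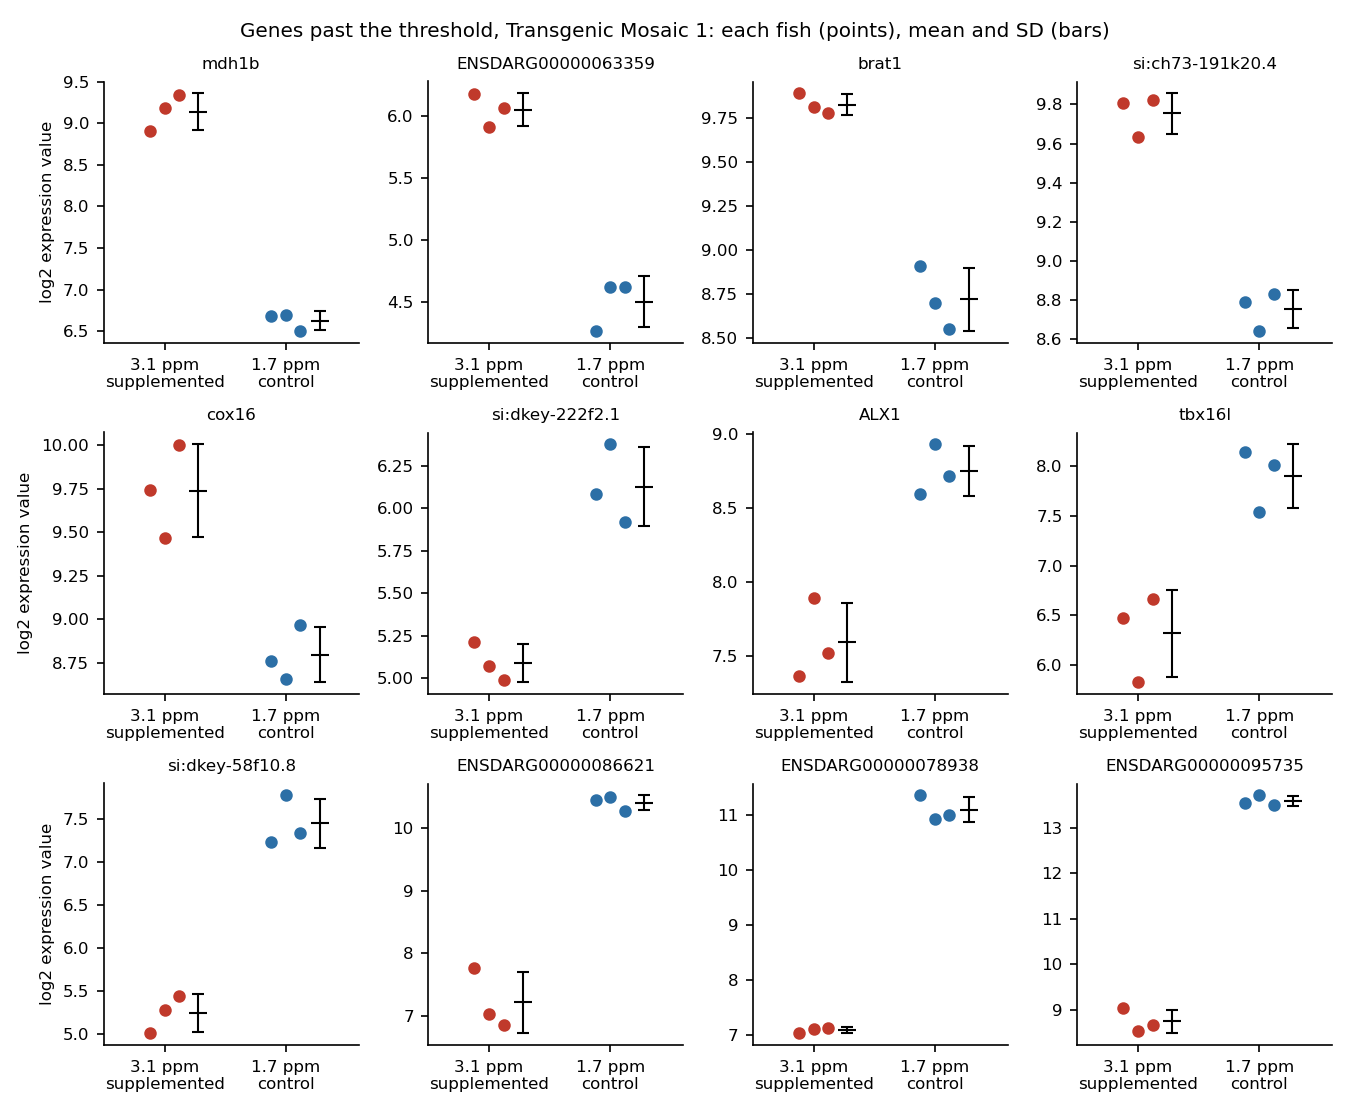
Log2 expression values (vertical axes, each with its own range) of the 12 named genes past the threshold, for the 3 supplemented fish (red, left) and the 3 control fish (blue, right), with the mean and SD of each group in black. In every panel the groups are apart, by 0.50 log2 units at the nearest fish in cox16 and by 4.47 in ENSDARG00000095735.

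The gene lists that hold mdh1b and cox16, and the subunits of oxidative phosphorylation, showed no common shift. Of 32 measured genes of the malate-aspartate shuttle and the tricarboxylic acid cycle, mdh1b was the 1 that passed, the list median was -0.02 and 15 lay above 0. The next members by p were GPD1, the cytosolic glycerol-3-phosphate dehydrogenase, at 0.43, and SDHC, a membrane subunit of succinate dehydrogenase, at 0.38, both with unadjusted p under 0.05. With mdh1b they were 3 of the 32 genes that were higher at that p, beside 2.16% of all genes. Of 15 cytochrome oxidase assembly factors cox16 alone passed, 4 lay above 0 and the median was -0.05. COA7, another assembly factor, was at 10.27, 9.76 and 10.16 in the supplemented fish and at 10.36, 11.02 and 10.70 in the controls, a difference of -0.63 that did not pass (limma adjusted p = 0.529). In 54 subunits of oxidative phosphorylation 0 passed in limma, 1 had an unadjusted p under 0.05, beside 5.76% of all genes, and the median was -0.04. That 1 was NDUFS1, the largest core subunit of complex I, with 12.17, 12.19 and 12.02 in the supplemented fish against 12.96, 12.66 and 12.73 in the controls (-0.66, limma adjusted p = 0.25).

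Of 54 measured DNA damage genes, brat1 was the 1 that passed. Another 4 were higher and 3 lower at an unadjusted p under 0.05, beside 2.16% and 3.6% of all genes. Among them were palb2, the partner of BRCA2 (0.63), and the uracil glycosylase gene UNG (-0.99). The list median of -0.03 was near that of all genes.

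None of the 18 measured selenoprotein genes passed the test, and none reached an unadjusted p under 0.05, where 5.76% of all genes did. Their median difference was -0.09, beside -0.04 over all genes. Below 0 were 14 of the 18, where 41.9% of all genes lay above 0. They ranged from -0.45 to 0.23. The lowest was gpx1a, the cytosolic glutathione peroxidase, at 10.72, 10.91 and 11.32 in the supplemented fish and 11.49, 11.24 and 11.57 in the controls. Those groups overlapped, with a difference of -0.45 ± 0.23 (SE; 95% interval -0.95 to 0.05). The highest was gpx3, the secreted glutathione peroxidase, at 0.23 ± 0.26, also with overlap. Without overlap was selenou1b, a selenoprotein of the U family, at 9.23 to 9.25 in the supplemented fish and 9.37 to 9.96 in the controls (-0.36 ± 0.25).

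Selenoprotein genes of high value differed little. The gene selenop, for the plasma selenium carrier, had 13.53, 13.28 and 13.49 in the supplemented fish and 13.62, 13.39 and 13.67 in the controls (-0.13 ± 0.14). GPX4, which reduces lipid peroxides in membranes, differed by 0.13 ± 0.17, and selenow1, for a small thioredoxin-fold selenoprotein, by -0.02 ± 0.14. The gene selenos, which acts in the disposal of misfolded proteins from the endoplasmic reticulum, differed by 0.12 ± 0.13. DIO2, the deiodinase that activates thyroid hormone, was at -0.21 ± 0.25. A difference well above its standard error could still go unresolved with 3 fish a group. That of gpx1a, -0.45 ± 0.23 (SE), had an unadjusted limma p of 0.0737.

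The 8 measured genes of selenocysteine synthesis and selenium transport, which make and place the amino acid, had a median of 0.06, with 5 above 0, 0 past the limma test and 0 with an unadjusted p under 0.05. The largest difference among them was that of secisbp2, which binds the selenocysteine insertion element of the messenger RNA, at 0.23 ± 0.26. Of 41 glutathione, thioredoxin and other antioxidant genes 0 passed and the median was -0.04. At an unadjusted p under 0.05, 0 were higher and 3 lower, beside 2.16% and 3.6% of all genes. The 3 were gstt2 (-1.30) and gstk1 (-0.32), both glutathione transferases, and HMOX1, the inducible heme oxygenase (-0.80). The 30 genes of the methionine cycle, transsulfuration and folate had a median of -0.01, with 0 past the test. At an unadjusted p under 0.05, 3 of them were higher, beside 2.16% of all genes. SHMT1, which passes carbon units from serine to folate, was at 8.69, 8.56 and 8.74 in the supplemented fish and at 5.92, 5.81 and 8.95 in the controls, so that 1 control lay above all supplemented fish. CTH, which makes cysteine from cystathionine, had a difference of 0.71 with no overlap and did not pass (limma adjusted p = 0.755).

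Over all 31 gene lists, 1053 distinct genes were measured and 3 passed, which were mdh1b, cox16 and brat1. Several lists were drawn up with these results known, so the 3 are no evidence about the lists. List medians ran from -0.18 to 0.19, and 25 of 31 were below 0, as was the median of all genes. The lowest was that of 29 immediate early genes, which respond to neural activity. Within it egr4, a zinc finger factor, ranged over 8.02 to 10.22 in the supplemented fish and 9.21 to 11.07 in the controls, and no member reached an unadjusted p under 0.05. PER1, a clock gene, was at 13.33, 11.21 and 10.73 in the supplemented fish and at 10.78, 13.28 and 13.02 in the controls. Fish 1 of each group was opposite to the others of its group for PER1.

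The highest median, 0.19, was that of 41 interferon response and antigen presentation genes, of which 0 passed. Above 0 were 29 of them, beside 41.9% of all genes. An unadjusted p under 0.05 was seen in 1 of them, beside 5.76% of all genes. A list score (each gene centred on its mean in the 17 arrays, then averaged within the list) was 0.63, 0.01 and -0.20 in the supplemented fish, against -0.12, -0.30 and -0.02 in the controls. Supplemented fish 1 alone was high. The antiviral gene mxa was also highest in that fish, with 7.51, 6.03 and 6.16 in the supplemented fish and 5.29, 5.19 and 5.44 in the controls. It was the list's 1 unadjusted call, with a difference of 1.26 and no overlap (limma adjusted p = 0.36). The 11 fish outside the comparison were at 5.60 to 6.81 for mxa, all above the controls.

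Chaperone, neurotransmission and steroid genes also held no gene past the limma test. Of all genes 41.9% lay above 0, and 5.76% had an unadjusted p under 0.05. Here such a p was seen in 2 of 38 chaperone and 2 of 37 monoamine and acetylcholine genes. It was also seen in 5 of 45 genes of GABA, glycine and glutamate and 3 of 32 steroid genes. Of 38 heat shock proteins and DnaJ cochaperones 27 were below 0, with a median of -0.12, and CRYAB, a small heat shock protein, was lowest at -1.25 (limma adjusted p = 0.224). Of 37 genes of monoamine and acetylcholine neurons 28 were below 0, with a median of -0.11. SPR, which completes the cofactor of the monoamine-synthesising hydroxylases, was at -0.68, and the nicotinic receptor subunit CHRNA2 at -0.28. Of 45 genes of GABA, glycine and glutamate transmission the metabotropic receptor GRM4 was higher in all 3 supplemented fish (13.26 to 13.32) than in the controls (12.27 to 12.90), and the AMPA receptor subunit GRIA2 lower (14.13 to 14.20 in the supplemented fish and 14.33 to 14.43 in the controls). Neither passed. Of 32 steroid synthesis and receptor genes 25 were below 0. The lowest, hsd3b1, for the enzyme that makes progesterone from pregnenolone, was at 5.53, 7.0 and 5.55 in the supplemented fish and at 7.93, 8.27 and 7.99 in the controls (-2.04 ± 0.47, limma adjusted p = 0.24).

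**Figure D3:**
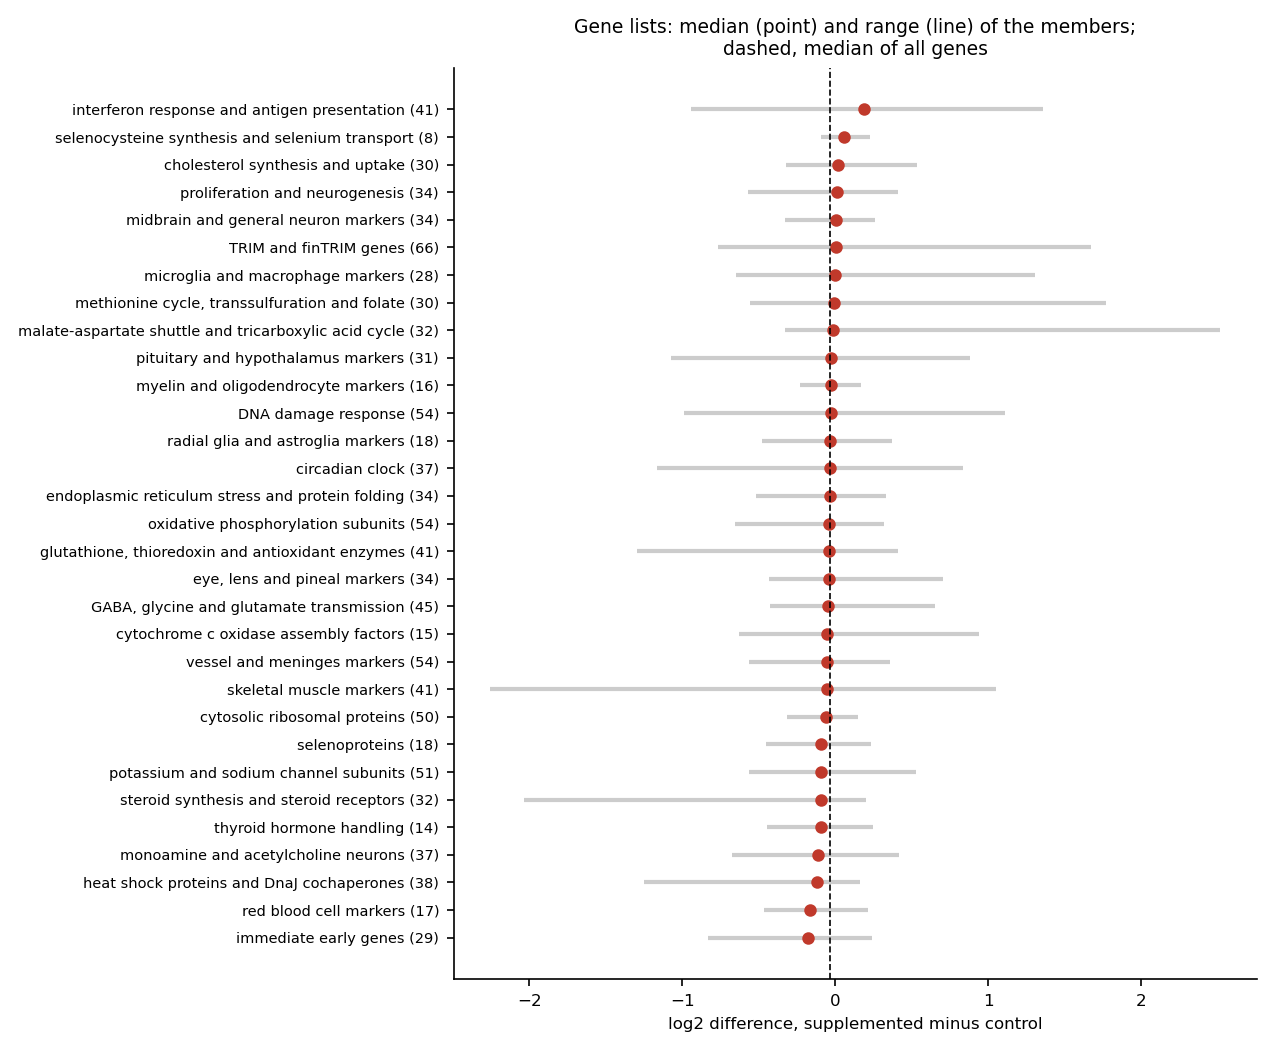
Median (red point) and full range (grey line) of the log2 difference, supplemented minus control, of the measured members of each of the 31 gene lists, with the number of members in brackets and the median of all genes dashed. The medians lie between -0.18 and 0.19, close to the dashed line at -0.04, while single members such as mdh1b (2.52) and NEB (-2.26) set the ends of the ranges.

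Markers of tissues that border the midbrain or enter a dissection were read in the same way. Of 41 skeletal muscle genes 0 passed, 18 were above 0 and the median was -0.05, and the list score was -0.18, -0.27 and -0.34 in the supplemented fish and -0.10, -0.14 and -0.31 in the controls, with overlap. Within it NEB, the giant thin filament protein nebulin, was at 5.43, 5.44 and 5.38 in the supplemented fish and 7.28, 8.52 and 7.22 in the controls (-2.26 ± 0.44, limma adjusted p = 0.0858). TNNT1, MYH7 and ACTC1, of the contractile filaments, were lower at an unadjusted p under 0.05 (-1.01, -0.62 and -0.34). With NEB they were 4 of 41 genes, beside 3.6% of all genes that were lower at that p. Other muscle genes were above 0, among them the parvalbumin genes pvalb1 (1.05) and pvalb4 (0.83), which buffer calcium in fast muscle, and neither passed. Of 17 red blood cell genes 15 were below 0, where 41.9% of all genes lay above 0. Their median was -0.17, with no unadjusted p under 0.05. Scores were -0.33, 0.00 and -0.23 in the supplemented fish, against -0.11, -0.06 and 0.06 in the controls.

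The 31 pituitary and hypothalamus genes had scores of -0.48, -0.04 and -0.08 in the supplemented fish and 0.06, -0.18 and -0.10 in the controls, with supplemented fish 1 lowest. Their median was -0.03 and 13 were above 0. At an unadjusted p under 0.05, 1 was higher and 3 lower, beside 2.16% and 3.6% of all genes. PMCH, for melanin-concentrating hormone, and prl2, for a prolactin, were at -1.07 and -1.0. PENK, for the enkephalin precursor, was at 0.33, and oxt, for oxytocin, at 0.88 with overlap. The fish differed widely for oxt, at 10.76 to 13.24 in the supplemented group and 7.91 to 13.41 in the controls. None of these passed. The 34 eye, lens and pineal genes had a median of -0.04 and 0 unadjusted p under 0.05. The 28 microglia and macrophage genes had a median of -0.0047 and 3 such p, beside 5.76% of all genes. The member of this list nearest to passing was AIF1L, a relative of the microglial gene AIF1. It was at 10.18, 10.17 and 10.28 in the supplemented fish and 9.59, 9.68 and 9.16 in the controls (0.73 ± 0.13, limma adjusted p = 0.0532). The 11 fish outside the comparison were at 10.04 to 10.50 for AIF1L, all above the controls. Lists of myelin, radial glia, vessel and meninges genes had medians from -0.05 to -0.03. Whether the tissue mix of the samples had a part in the genes that passed was not tested.

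Beyond the threshold, some of the next genes by p had differences as large as some that passed, and others had smaller ones. PMM2, which makes the mannose phosphate used to glycosylate proteins, was at 8.32, 8.29 and 8.37 in the supplemented fish and at 6.75, 5.14 and 6.70 in the controls (2.13 ± 0.37, limma adjusted p = 0.052). TLR2, a receptor for bacterial lipoproteins, was at 10.53, 9.78 and 10.30 in the supplemented fish and 8.43, 8.61 and 8.29 in the controls (1.76 ± 0.31, limma adjusted p = 0.0532). CIAO2B, which delivers iron-sulfur clusters to proteins of the cytosol and nucleus, had a difference of -0.71, and the transcriptional repressor gene GFI1 one of -0.85. ANKRD2, a stress-responsive muscle protein (-2.38, limma adjusted p = 0.0749), and eef2a.2, an elongation factor of translation (-1.55, limma adjusted p = 0.115), were further down.

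Some of the widest differences came with a spread too wide for a call. TMBIM1 was at 4.61, 4.59 and 4.17 in the supplemented fish and 8.91, 8.04 and 9.16 in the controls, a difference of -4.25 with a standard error of 0.97. The spread was widest in the deficient Transgenic Mosaic 1 fish, at 4.04, 9.26 and 4.30 (SD 2.94, against 0.21 to 0.68 in the other groups). In the same way dand5, an antagonist of Nodal signals, was at 4.82, 4.88 and 4.43 in supplemented fish and 6.42, 7.13 and 7.46 in controls (-2.29 ± 0.60), with deficient fish at 4.58, 7.99 and 5.10. For TMEM237, a protein of the base of the cilium, and tatdn2, of the TatD nuclease family, the differences were 1.91 and 1.88, with standard errors of 0.55 and 0.56.

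The deficient Transgenic Mosaic 1 fish give a level of the same genes at lower selenium. Deficient and supplemented fish are each compared with the same 3 controls, so the differences are set side by side and not counted together. For ENSDARG00000095735 the deficient fish were at 9.36, 9.45 and 9.15, and the difference from control was -4.27, beside -4.85 for the supplemented fish. ENSDARG00000078938 was at -4.05 on the deficient and -4.0 on the supplemented diet, and si:dkey-58f10.8 at -2.01 and -2.21. For these 3 genes the controls, on the middle selenium level, were the highest group. The controls were also the highest Transgenic Mosaic 1 group by mean for the other named falls. Control and deficient means were 7.90 and 6.77 for tbx16l, and 8.75 and 8.26 for ALX1. They were 6.13 and 5.53 for si:dkey-222f2.1, and 10.40 and 8.48 for ENSDARG00000086621.

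For the rises the controls were the lowest of the Transgenic Mosaic 1 groups by mean. The deficient fish were at 9.16, 8.72 and 9.27 for brat1 and at 9.24, 9.57 and 9.49 for cox16, whose deficient mean was 0.63 above the controls and 0.31 below the supplemented fish. For mdh1b they were at 8.38, 6.82 and 6.58, so that 1 deficient fish neared the supplemented fish and the others the controls. For ENSDARG00000063359 they were at 4.99, 4.84 and 4.69. That gene was the 1 gene of 15648 (0.00639%) that passed between the supplemented and the deficient fish as well, with a difference of 1.21 ± 0.16 (limma adjusted p = 0.0326). Between the deficient fish and the controls 4 genes passed (0.0256%), all lower.

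**Figure D4:**
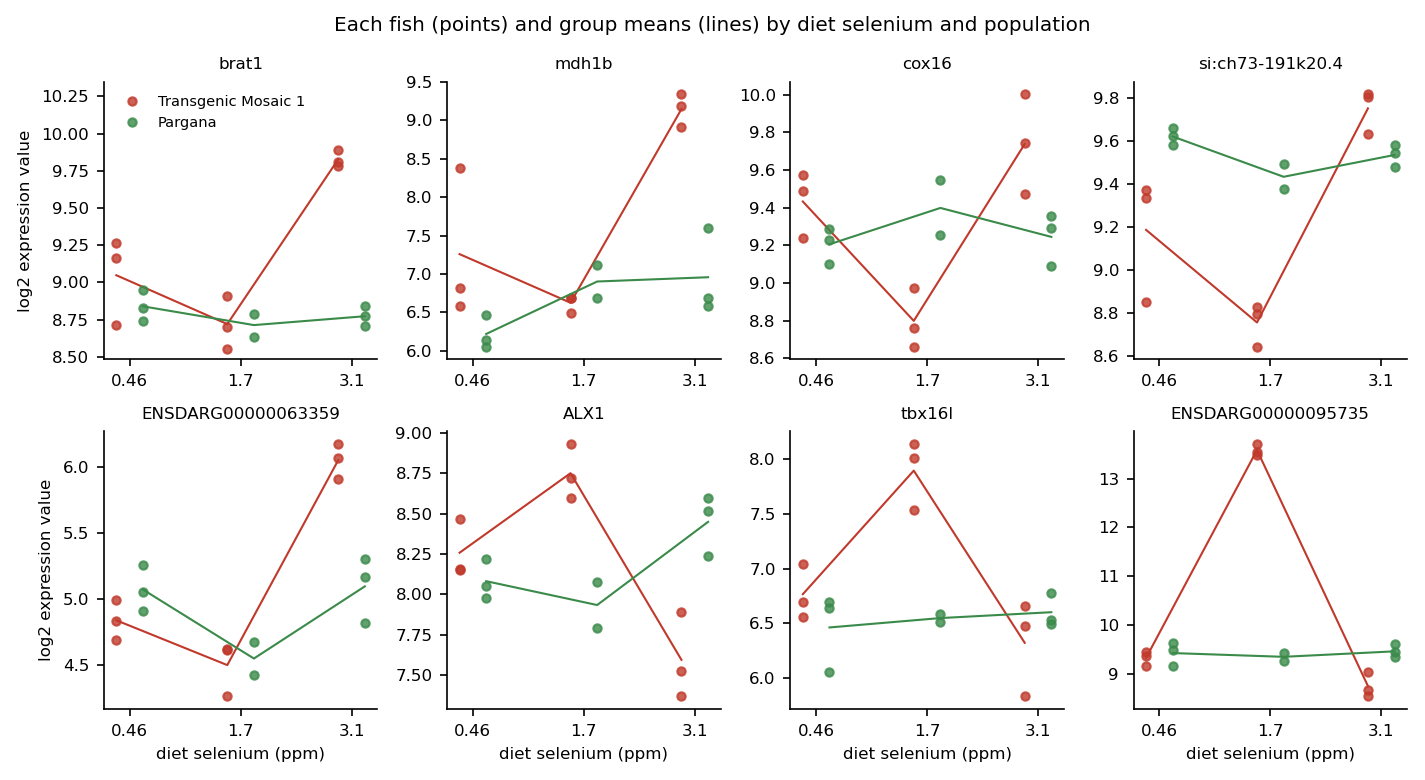
Log2 expression values (vertical axes, each with its own range) of 8 genes past the threshold, by diet selenium (0.46, 1.7 and 3.1 ppm) in Transgenic Mosaic 1 (red) and Pargana (green), with a point for each fish and lines through the group means. The red lines rise at 3.1 ppm for brat1 and mdh1b and peak at 1.7 ppm for tbx16l and ENSDARG00000095735, while the green lines of those 4 genes are nearly level except for mdh1b between 0.46 and 1.7 ppm.

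The same pair of diets was measured in Pargana, in 3 supplemented and 2 control fish. There 5 genes passed (0.032%), and none of the 12 named genes was among them, with limma adjusted p of 0.513 or more. Their Pargana differences ran from -0.32 to 0.97. For brat1 the supplemented Pargana fish were at 8.84, 8.71 and 8.77 and the Pargana controls at 8.64 and 8.79, all within or near the range of the Transgenic Mosaic 1 controls. For mdh1b the supplemented Pargana fish were at 6.69, 6.58 and 7.60 and the Pargana controls at 6.69 and 7.12. For ALX1 the supplemented Pargana fish (8.24, 8.60 and 8.51) lay above the Pargana controls (7.79 and 8.08), opposite in sign to Transgenic Mosaic 1. ENSDARG00000063359 had the sign of its rise in Pargana too, with 5.31, 5.17 and 4.82 in the supplemented and 4.67 and 4.42 in the control fish (0.55 ± 0.17, limma adjusted p = 0.513).

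A gene that passes in one population and not in the other need not differ between them, so the difference of the diet effects was tested as an interaction. It passed for 7 of 15648 genes (0.0447%), all with a lower effect in Transgenic Mosaic 1, of which 1 is not reported here. They included 4 of the 12 named genes: ENSDARG00000095735 (-4.96 ± 0.23, limma adjusted p = 7.67e-08), ENSDARG00000078938 (-4.39 ± 0.34), si:dkey-58f10.8 (-2.26 ± 0.28) and ALX1 (-1.67 ± 0.24, limma adjusted p = 0.0159). For none of the 5 rises did the interaction pass. It was 1.05 ± 0.21 for brat1 (limma adjusted p = 0.171), 2.46 ± 0.57 for mdh1b (0.273), 1.09 ± 0.23 for cox16 (0.195) and 1.01 ± 0.23 for ENSDARG00000063359 (0.273). A difference between the populations in these rises was therefore not shown. Without Pargana control fish 2 the interaction passed for 81 genes, and without Pargana control fish 1 for 8, each time with 1 fish left in that group.

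**Figure D5:**
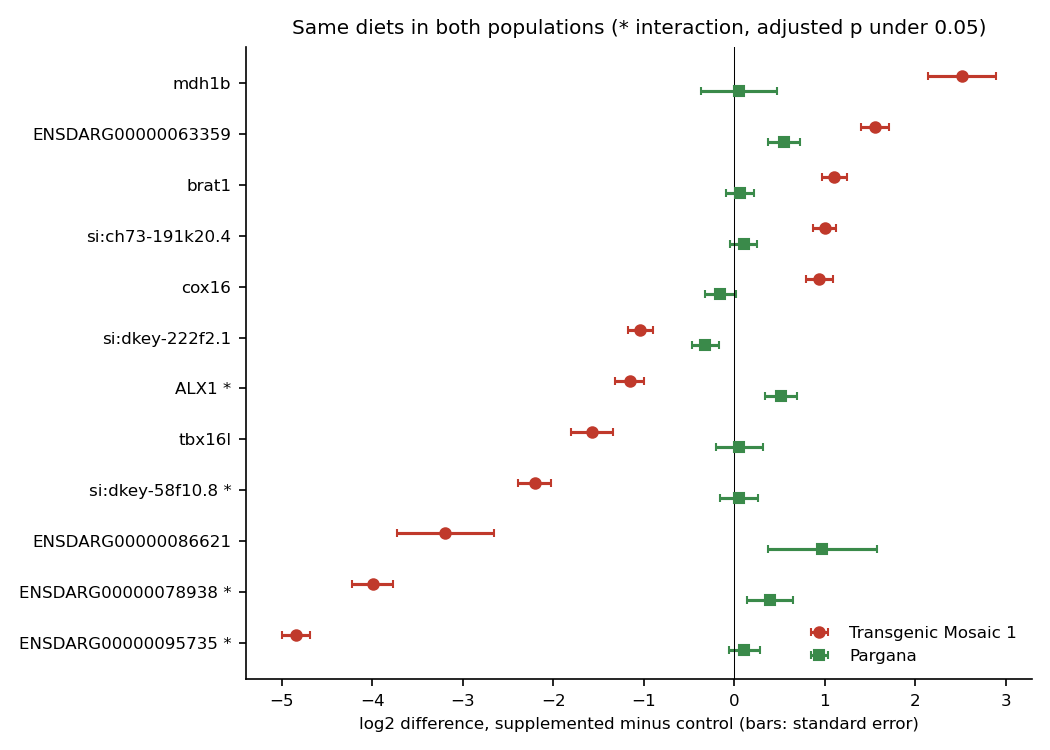
Log2 difference, supplemented minus control (horizontal axis), of the 12 named genes in Transgenic Mosaic 1 (red circles) and Pargana (green squares), with standard errors as bars and a star for genes whose interaction passed. The red points lie at -4.85 to 2.52 and the green ones at -0.32 to 0.97.

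Of the 13 genes that passed 9 could be placed in the RefSeq gene order of the GRCz12tu assembly, which is not the build of the array values. Placed on chromosome 1 were 3 of the 5 rises (mdh1b, brat1 and si:ch73-191k20.4). Genes named above without passing that were also placed there included PMM2, TLR2, mxa and palb2, with differences above 0, and dand5, below 0. They are therefore not spread over the genome. Of the 526 placed genes of that chromosome 4.56% were higher and 3.61% lower at an unadjusted p under 0.01, beside 0.575% and 0.970% of all 11644 placed genes. The gene next to mdh1b, fastkd2, which binds RNA in mitochondria, was at 9.59, 9.72 and 9.97 in the supplemented fish and 9.03, 8.35 and 8.81 in the controls (1.02 ± 0.23, limma adjusted p = 0.217). TLR2 lies 2 places from si:ch73-191k20.4. The measured neighbour of brat1, si:dkey-26i13.8, went the other way at -0.76 (limma adjusted p = 0.294). ENSDARG00000092667, 3 places before ENSDARG00000095735, was at -0.89 (limma adjusted p = 0.43). The genes 1, 2 and 3 places after it, si:dkey-58f10.14, si:dkey-58f10.13 and si:dkey-58f10.12, were at 0.36, 0.28 and 0.18 without passing. They share a clone name with si:dkey-58f10.8, which was not placed. Whether it and ENSDARG00000095735 come from 1 locus was not tested. On the other side of mdh1b, retreg2 was at -0.14, and the neighbours of cox16, ALX1 and tbx16l differed by -0.17 to 0.51 without passing.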

How the data were processed

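RNA of individual midbrains (Trizol) was copied with random primers and labelled with Cy3, per the labels' protocols. The authors deposited log2 expression values per Ensembl gene, made by RMA with the Zv9 build, per the submitters' processing notes; a software version is not given in the sources used here. Values were used as deposited. Of 15649 features 1 names no gene and was left out, and 84.68% of the rest have a symbol. No background call or array batch is given in the sources used here, so neither was examined. Every array is a separate fish, numbered in accession order, and p-values measure the spread between these fish.

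Tests were those of limma 3.58.1, run in R 4.3.3 (lmFit and eBayes, two-sided, 6 group means, 17 arrays, 11 residual and 2.84 prior degrees of freedom), with Benjamini-Hochberg adjustment over all genes and a threshold of 0.05. The fits were also run on simulated data with independent normal noise, which held no outlying fish and so cannot speak to those of the real arrays. Lists were matched by symbol (845 entries), synonym (144) or base symbol (195), 1184 of 1858 entries in all, and carry no test. Members, lists and rules were chosen with earlier results of these data known.

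Named genes were drawn from groups picked by rule, and not every gene of these groups is given in the text (kdm2aa and LRRC14B are not). The groups were all that passed, the next 12 by p with a symbol, and the 8 largest differences each way with an unadjusted p under 0.01 and no overlap. They also held up to 4 list members of smallest p with an unadjusted p under 0.05 (the 2 largest differences where none has). Further groups were gpx1a, selenop, selenow1, GPX4 and selenos (selenoh had no match), the 8 smallest interaction p-values, and 3 neighbours on each side. The midbrain markers read beside the tissue label, NPY, TSHB, oxt, pvalb1, pvalb4, and the selenoproteins gpx3 and DIO2, were added after their values were seen. One gene past the threshold and one list member are not reported here. Alternatives were other normalizations, filters, variance models and sets of arrays, and leaving out each array. Further software was matplotlib 3.10.9, numpy 2.4.6, pandas 2.3.3 and python 3.11.15.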

Additional observations from a re-analysis of the deposited data

Results flagged for a closer look

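The difference between the populations in the effect of the supplemented diet was tested gene by gene (limma interaction, Transgenic Mosaic 1 minus Pargana), and 6 reported genes passed an adjusted p of 0.05. Of these, 4 also fell in Transgenic Mosaic 1: ENSDARG00000095735 (-4.96), ENSDARG00000078938 (-4.39), si:dkey-58f10.8 (-2.26) and ALX1 (-1.67). In the first 3 the Transgenic Mosaic 1 control fish were high and the Pargana groups were near each other. In ALX1 the differences had opposite signs, -1.16 in Transgenic Mosaic 1 and 0.51 in Pargana.

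The others passed through the Pargana fish. UBE2G1, a ubiquitin-conjugating enzyme, had an interaction of -5.95, with 11.60, 11.92 and 11.67 in supplemented and 5.32 and 5.80 in control Pargana fish, and a difference of 0.22 in Transgenic Mosaic 1. ENSDARG00000091965 had an interaction of -2.83, with 8.37, 8.40 and 8.63 in supplemented and 5.83 and 6.12 in control Pargana fish, and a difference of -0.34 in Transgenic Mosaic 1.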

How the results depend on the processing

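The count of 13 genes was 5 (1 higher, 4 lower) with Transgenic Mosaic 1 arrays only, 11 (3 higher) with the 6 arrays only, 16 (8 higher) with arrays centred on their medians, 18 (8 higher) with a trended variance and 34 (10 higher, 24 lower) with array weights. Leaving out 1 array gave 8 to 26 genes, 3 to 8 higher and 5 to 18 lower, with 8 without supplemented fish 1 and 26 without deficient fish 2 of Transgenic Mosaic 1. The interaction count of 7 ran from 6 to 81 (0 to 63 higher, 6 to 18 lower), with 81 without Pargana control fish 2 and 17 without Pargana supplemented fish 2. The calls of ENSDARG00000095735, ENSDARG00000078938, si:dkey-58f10.8 and ENSDARG00000063359 held in every fit that tested them; those of brat1, si:dkey-222f2.1 and si:ch73-191k20.4 were lost only in the fits of Transgenic Mosaic 1 arrays only and of the 6 arrays only. Of 2960 values of named genes under the alternatives, 2851 kept their direction and side of the threshold, 50 lost a call, 53 gained one and 6 changed sign. The median of all genes was 3.44e-05 after quantile normalization and 0.00389 after centring. After centring the medians were 0.000563 for antioxidant, 0.0244 for malate and tricarboxylic acid cycle, 0.013 for myelin and 0.0481 for midbrain genes, and after quantile normalization 0.0159 for radial glia. Small differences of selenoprotein genes and of secisbp2 changed sign: selenow1 was 0.026 after quantile normalization, 0.0177 after centring and -0.0587 to 0.0453 leaving out 1 array, selenos ran from -0.0204 to 0.232 and secisbp2 from -0.0119 to 0.459. Leaving out 1 array, list medians ran from -0.0845 to -0.017 for antioxidant, -0.0378 to 0.0374 for malate and tricarboxylic acid cycle, -0.043 to 0.189 for microglia, -0.0303 to 0.021 for midbrain, -0.182 to -0.0502 for monoamine and acetylcholine, -0.0801 to 0.00774 for GABA, glycine and glutamate, -0.145 to 0.0176 for thyroid hormone, -0.297 to -0.0589 for red blood cell and -0.095 to -0.0275 for channel genes. The cause of these shifts was not tested. No paired analysis was possible because the fish codes in the labels pair no fish across diets and replicate numbers follow accession order only.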

Other observations

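Gene groups not described above held no gene past an adjusted p of 0.05 in limma between the supplemented and the control fish. Of 66 TRIM and finTRIM genes, which include antiviral ubiquitin ligases, 34 were above 0. At an unadjusted p under 0.05, 3 were higher and 3 lower, beside 2.16% and 3.6% of all genes. The gene ftr86 was at 8.82, 8.47 and 8.59 in the supplemented fish and at 6.91, 6.85 and 7.11 in the controls (1.67 ± 0.60, limma adjusted p = 0.679), and trim35-31 at 9.74, 9.51 and 9.44 in the supplemented fish and 9.05, 8.49 and 8.93 in the controls (0.74 ± 0.16, limma adjusted p = 0.213). Neither had an overlap between the groups.

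Of 34 genes of endoplasmic reticulum stress and protein folding, 1 was higher and 2 lower at an unadjusted p under 0.05. Of all genes 2.16% were higher and 3.6% lower at that p. DDIT3, a transcription factor induced by unfolded proteins, was at 13.41, 13.54 and 13.58 in the supplemented fish and 13.19, 13.19 and 13.17 in the controls (0.33 ± 0.12). SEC61A1, the channel of the endoplasmic reticulum membrane, was at 11.91, 12.09 and 12.01 in the supplemented fish and 12.24 to 12.28 in the controls. Of 50 cytosolic ribosomal protein genes 37 were below 0, where 41.9% of all genes lay above 0. Their median was -0.06, and 0 had an unadjusted p under 0.05, beside 5.76% of all genes. Of 51 potassium and sodium channel subunits the highest was SCN4B, a sodium channel beta subunit, at 0.53. In the 30 cholesterol genes SOAT1, which esterifies cholesterol, was at 0.53 and MYLIP, which degrades lipoprotein receptors, at -0.32.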
